A study of Homo sapiens with 12 samples.

Results

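The genes described here encode the nuclear subunits of the mitochondrial respiratory chain and ATP synthase. They were chosen by name: NDUFA, NDUFB, NDUFC, NDUFS and NDUFV followed by a number, NDUFAB1, SDHA to SDHD, names starting with UQCR, CYC1, COX4 to COX8 followed by A, B or C, and names starting with ATP5. This rule found 76 members among the 11548 genes measured, of which 35 belong to complex I, 4 to complex II, 9 to complex III, 11 to complex IV and 17 to complex V. NDUFV2 was not analysed here. NDUFA4 was placed in complex IV, where its protein is now assigned. ATP5S and ATP5SL, today DMAC2L and DMAC2, carry the name without being subunits, so that 74 members are structural or supercomplex genes. Both were kept among the 17 of complex V, and ATP5SL is also on the list of assembly factors used below. COX4I1 lies outside the rule and was followed separately. The names are those in the data, and newer symbols are given where a gene is first described.

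The samples were 3 human hepatocellular carcinoma cell lines, Hep3B, Huh7 and MHCC97H, labelled wild type and sequenced from polyA+ RNA. Each line was left untreated or given AZD8055 (100 nM), an ATP-competitive inhibitor of both mTOR complexes, compound #57, an allosteric inhibitor of the phosphatase SHP2, or both (100 nM AZD8055 with 5 µM compound #57). The dose of compound #57 alone for the sequenced cells was not given in the sources used here. Exposure lasted 48 h in Hep3B and Huh7 and 24 h in MHCC97H, so a difference between MHCC97H and the other lines cannot be told apart from one of exposure time. There was 1 library per line and treatment, 12 in all, and the 3 lines served as the replicates of a treatment (n = 3). P-values therefore measure the spread of a drug response over cell lines, not over cultures of 1 line.

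Oxidative phosphorylation moves electrons from NADH and succinate through complexes I to IV to oxygen and uses the resulting proton gradient to turn complex V, the ATP synthase. Most subunits are encoded in the nucleus, and a small set, all in the hydrophobic cores of complexes I, III, IV and V, is encoded in mitochondrial DNA. mTOR complex 1 is known to favour mitochondrial gene expression through the transcription factor YY1 with PGC-1α, and to favour translation of some mitochondrial mRNAs through the 4E-BP proteins. Hepatocytes, the cells from which these tumours arise, are rich in mitochondria.

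Libraries held 10667343 to 15968317 reads. Values are given as scaled reads, that is reads per 10000000 reads of the library, and differences as log2 differences of (scaled reads + 1). All 15 listed hepatocyte and liver tumour markers were in the table, and TTR was at 0 in the untreated and combination libraries of MHCC97H. Their summed level was 272700 to 671800 scaled reads in Hep3B, 408240 to 567950 in Huh7 and 54350 to 62983 in MHCC97H. In MHCC97H most of that sum came from the keratins KRT8 (35591 untreated) and KRT18 (15541), which other epithelia also express. The secreted liver proteins were low there, with ALB at 142 to 732, AFP at 41.4 to 78.1 and APOA1 at 2.81 to 8.09. Of 10 fibroblast and endothelial markers 4 were in the table, with a summed level of 105 to 306 in Hep3B, 1141 to 1641 in Huh7 and 612 to 1378 in MHCC97H. Of 9 leukocyte markers only LYZ was in the table, at 31.6 to 1140 in Hep3B, 523 to 7512 in Huh7 and 0.768 to 4.91 in MHCC97H. LYZ was highest in the untreated library of Hep3B and of Huh7, so that it moved with treatment in these lines, and its part in the results was not tested.

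The promoter sequences below show the members on which the treatment results turn. ATP5G1 (ATP5MC1) and NDUFAB1 had the lowest estimates under the combination, NDUFS6 was lower in each line, and ATP5G2 (ATP5MC2) is a paralogue of ATP5G1 whose values were higher. Each sequence is the 200 bases before the RefSeq start site, 5′ to 3′ on the gene's strand, in GRCh38.p14, at chr17:48892587-48892786 (plus strand), chr12:53676084-53676283 (minus), chr5:1801207-1801406 (plus) and chr16:23596317-23596516 (minus). Capitals mark exact matches, on either strand, to the cores CGCATGCG (NRF1), CCGGAAGT (GABPA), AAGATGGCG (YY1), TCAAGGTCA (ERR) or TGACGTCA (CREB).

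ATP5G1: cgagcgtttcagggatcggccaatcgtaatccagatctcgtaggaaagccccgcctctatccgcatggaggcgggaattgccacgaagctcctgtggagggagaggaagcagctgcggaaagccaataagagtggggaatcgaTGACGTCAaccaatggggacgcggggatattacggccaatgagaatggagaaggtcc
ATP5G2: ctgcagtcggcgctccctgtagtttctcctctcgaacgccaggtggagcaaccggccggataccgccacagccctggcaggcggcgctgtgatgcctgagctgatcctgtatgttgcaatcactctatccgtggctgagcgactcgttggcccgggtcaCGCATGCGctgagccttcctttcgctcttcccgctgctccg
NDUFS6: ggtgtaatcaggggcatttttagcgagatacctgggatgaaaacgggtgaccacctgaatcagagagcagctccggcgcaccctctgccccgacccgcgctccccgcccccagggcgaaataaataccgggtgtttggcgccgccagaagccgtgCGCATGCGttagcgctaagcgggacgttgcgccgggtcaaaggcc
NDUFAB1: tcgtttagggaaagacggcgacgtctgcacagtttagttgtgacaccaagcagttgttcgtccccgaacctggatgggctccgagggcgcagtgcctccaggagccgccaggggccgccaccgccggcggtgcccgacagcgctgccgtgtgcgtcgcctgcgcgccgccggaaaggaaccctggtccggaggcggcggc

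ATP5G2 and NDUFS6 both hold the palindromic NRF1 core, ATP5G1 holds the CREB core, and these 200 bases of NDUFAB1 hold none of the letters searched. A RefSeq promoter window (250 bases before to 50 after the start) was matched for 61 of the 76 members. The NRF1 core stood in 10 of 61 member windows (16.4%), against 4.12% of 9193 windows of genes in the table and 2.19% of all 27305. The GABPA core stood in 14.8% of member windows and 9.65% of those of the table's genes, the YY1 core in 11.5% and 4.35%, and the CREB core in 8.20% and 3.50%. SP1's GGGCGG went the other way, with 57.4% of members and 71.6% of the table's genes. The ERR core was in 1 member window (SDHD, 1.64%) and 0.163% of the table's genes. Members with the NRF1 core were found on both sides of 0 with AZD8055, ATP5G2 above it and NDUFS6 below. These are counts of letters, not of bound sites.

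The members were abundant. None was at 0 in any library, and the lowest count was 28 reads (NDUFA13). In untreated cells, per kilobase of the canonical transcript, ATP5B (ATP5F1B), the catalytic β subunit of ATP synthase, was at the top, followed by ATP5G2, and NDUFA9 was at the bottom. ATP5B stood at 4893, 6286 and 5761 scaled reads per kilobase in Hep3B, Huh7 and MHCC97H, and ATP5G2 at 2483, 2949 and 2607. Lengths came from GENCODE v44 and not from the transcripts each line uses, so the order is approximate. For 47 members GENCODE names at least 1 pseudogene, up to 17 for COX6C, and 28 members are overlapped by another gene on the same strand. How reads shared with such copies were assigned was not given in the sources used here, and the values of these genes are uncertain to that degree.

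AZD8055 alone was compared with untreated cells to ask what mTOR inhibition did to the set. Members took a smaller share of the reads in each line: 0.719% untreated and 0.607% with AZD8055 in Hep3B, 0.694% and 0.554% in Huh7, and 0.652% and 0.536% in MHCC97H. The median of the 76 log2 differences was -0.26 in Hep3B, -0.29 in Huh7 and -0.24 in MHCC97H, and -0.24 for the mean over the lines, where the median of all genes was 0.03. Estimates were below 0 for 68 members, and 50 members were lower in all 3 lines (65.8%, against 25.7% of all genes). Single genes seldom passed the test. limma called 1 member lower and 0 higher at an adjusted p under 0.05, where it called 0.753% of all genes lower and 2.21% higher, and at an unadjusted p under 0.05 it had 31 members lower and 0 higher, beside 12.2% and 15.2% of all genes. The count of members called was 3 with limma-voom on whole reads, 8 with libraries centred on their medians and 11 after adjustment for transcript GC content and length, where 3.76%, 4.10% and 5.90% of all genes were called. It was 0 without Hep3B, without Huh7 and without MHCC97H, where 1, 0 and 109 of all genes were called.

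Within a line, where no test is possible, 29 members were at least 20% lower with AZD8055 in Hep3B, 33 in Huh7 and 27 in MHCC97H. The share of all genes that far down was 15.6%, 24.1% and 22.9%. At least 25% higher were 0 members in Hep3B, 1 in Huh7 (COX7A2L) and 0 in MHCC97H.

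**Figure D1:**
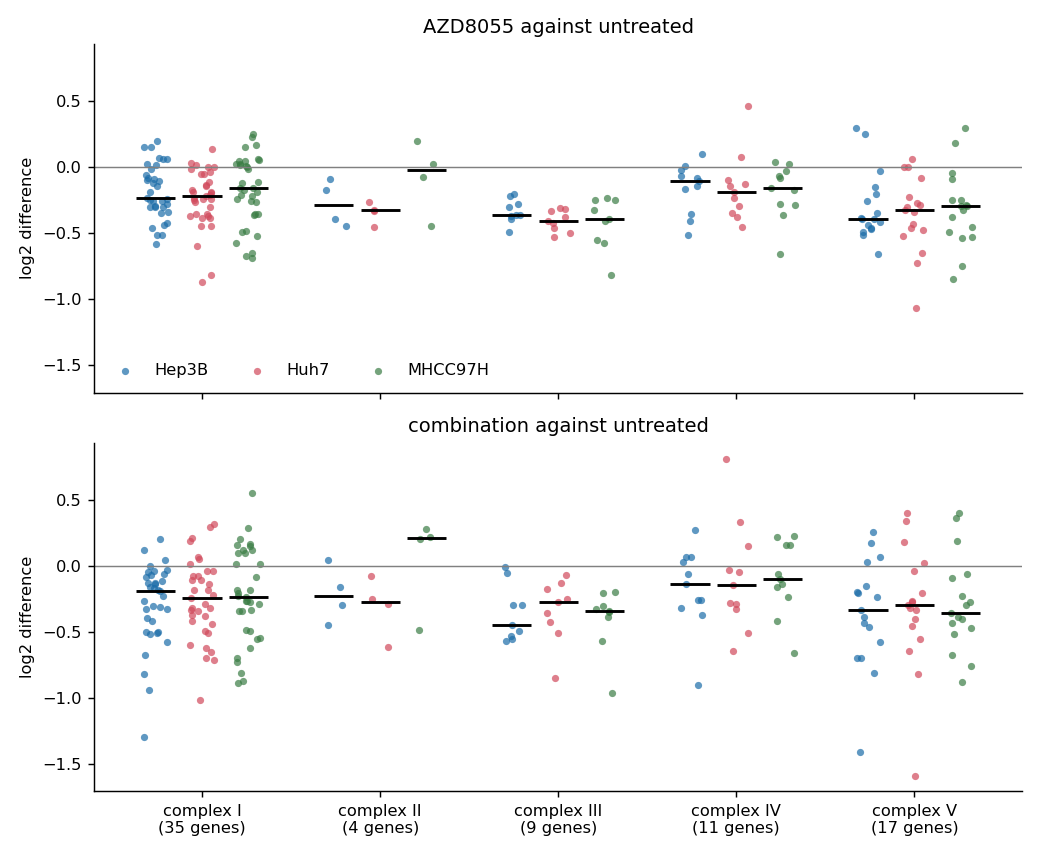
Log2 difference from untreated (vertical axis) of each member with AZD8055 (top) and with the combination (bottom), by complex and cell line, each point 1 gene and each bar the median of the complex in that line. All 9 complex III points lie below 0 in each line in both panels, and the complex II points of MHCC97H centre near 0 with AZD8055 and above it with the combination.

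The complexes differed in how far their medians lay from 0, although no test compares them. With AZD8055 the median of complex III, which passes electrons from ubiquinol to cytochrome c, was -0.36, -0.41 and -0.39 in Hep3B, Huh7 and MHCC97H, and that of complex V was -0.39, -0.32 and -0.30. Complex I, the NADH dehydrogenase, stood at -0.23, -0.22 and -0.16, and complex IV, cytochrome c oxidase, at -0.11, -0.19 and -0.15. Complex II, succinate dehydrogenase, stood at -0.29 and -0.33 in Hep3B and Huh7 and at -0.02 in MHCC97H. All 9 complex III members were lower in all 3 lines, as were 14 of 17 in complex V, 7 of 11 in complex IV, 18 of 35 in complex I and 2 of 4 in complex II. The exceptions in complex V were ATP5G2 and the non-subunits ATP5S and ATP5SL.

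The c ring of ATP synthase, the rotor that protons turn, is encoded by 3 genes whose mature proteins are the same, and the 3 genes differed in direction. ATP5G3 (ATP5MC3) was at 1659, 1971 and 1198 scaled reads in untreated Hep3B, Huh7 and MHCC97H and at 1164, 1255 and 713 with AZD8055. Each treated library was below its own untreated one, and this was the member that fell (log2 difference -0.64, SE 0.10, limma adjusted p = 0.0304). The call was lost when any 1 of the 3 lines was left out, without which the adjusted p was 0.109 (Hep3B), 0.366 (Huh7) and 0.0789 (MHCC97H).

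ATP5G1 was at 618, 576 and 231 scaled reads untreated and at 392, 275 and 128 with AZD8055. All 3 lines were lower, with log2 differences of -0.66 (95% counting interval -0.83 to -0.49), -1.06 (-1.25 to -0.88) and -0.85 (-1.13 to -0.59), and the mean of -0.86 just missed the threshold (SE 0.20, limma adjusted p = 0.0506). ATP5G2 was at 1569, 1864 and 1648 scaled reads untreated and at 1928, 1942 and 2027 with AZD8055. Its estimate was 0.22, above 0 in all 3 lines and not called, and in Huh7 the counting interval of the difference (-0.02 to 0.14) included 0. The median of all genes was within 0.09 of 0 in each comparison of treatments, and no direction given here for these 3 genes turned under any scaling tried.

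**Figure D2:**
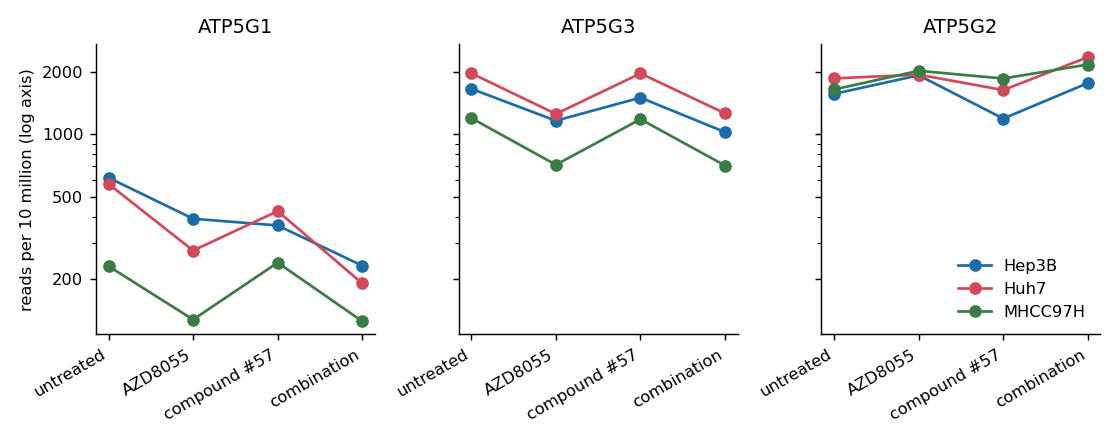
Scaled reads, per 10000000 reads of the library (log axis), of the c ring genes ATP5G1, ATP5G3 and ATP5G2 in the 12 libraries, by treatment, with a line joining the libraries of each cell line. ATP5G1 and ATP5G3 are lower in both AZD8055-containing treatments than in untreated cells in every line, and ATP5G2 is higher.

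In the F1 head, which makes ATP, and its central stalk, all 5 members were lower in all 3 lines with AZD8055. ATP5B was at 8607, 11057 and 10133 scaled reads untreated and at 6440, 8215 and 6994 with the drug, a difference of -0.46 (SE 0.13, limma adjusted p = 0.066). ATP5A1 (ATP5F1A, the α subunit) gave -0.47 and ATP5C1 (ATP5F1C, the γ shaft) -0.41, at adjusted p of 0.0561 and 0.0566. The peripheral stalk, which keeps the head from turning, held 4 members, all lower in all 3 lines, among them ATP5F1 (-0.39) and ATP5O (OSCP, -0.28). ATPIF1, the inhibitor of ATP hydrolysis, lies outside the name rule; it was at 690, 508 and 278 scaled reads untreated, 508, 272 and 223 with AZD8055 and 283, 255 and 239 with the combination, and it fell with the combination (-0.83, SE 0.21, limma adjusted p = 0.0137).

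In complex III, UQCRFS1, the Rieske iron-sulfur protein, was at 816, 824 and 1201 scaled reads untreated and at 580, 584 and 805 with AZD8055 (-0.52, SE 0.12, adjusted p = 0.0517). CYC1, cytochrome c1, was at 1063, 840 and 1922 untreated and at 916, 632 and 1090 with AZD8055. Its difference was largest in MHCC97H (-0.82) and smallest in Hep3B (-0.22). The core proteins UQCRC1 and UQCRC2 gave -0.43 and -0.30. In complex II, SDHB, the iron-sulfur subunit, gave -0.43, with values of 501, 585 and 638 scaled reads untreated and 380, 427 and 468 with the drug. The flavoprotein SDHA and the membrane anchor SDHC were lower in Hep3B and Huh7, and in MHCC97H they read 952 and 832 untreated and 970 and 956 with AZD8055.

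In complex I the medians of the modules that hold the flavin and the iron-sulfur clusters lay closer to 0 than those of complexes III and V. The 5 members of the ubiquinone-reducing module, among them NDUFS3 (-0.18), had a median of -0.16 and the 7 of the NADH-oxidising module -0.09. NDUFV1, the flavoprotein, was at 1955, 3491 and 927 scaled reads untreated and 2041, 2830 and 1086 with AZD8055, so that only Huh7 was lower. NDUFS1, the largest iron-sulfur subunit, was lower in Hep3B and Huh7 and read 1667 and 1675 in MHCC97H. Among the lowest estimates were accessory genes. NDUFS6, a zinc-binding subunit counted in the NADH-oxidising module, was at 606, 247 and 277 scaled reads untreated and at 405, 163 and 176 with AZD8055. NDUFS6 was thus lower in all 3 lines (-0.61, SE 0.15, adjusted p = 0.0557), unlike the median of its module. NDUFAB1, the mitochondrial acyl carrier protein, which also serves lipoic acid synthesis, was at 666, 394 and 798 untreated and 466, 215 and 569 with AZD8055 (-0.63, SE 0.15, adjusted p = 0.0539).

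In complex IV the members lay closer to 0. COX5A gave -0.38, COX5B -0.13 and COX7B -0.49, none called. NDUFA1 in complex I and ATP5S had, beside ATP5G2, small positive differences in all 3 lines (0.06 and 0.15). NDUFV3 was also higher in each line, at 390, 263.0 and 263 scaled reads untreated and 410, 263.3 and 296 with AZD8055. COX7A2L, which links complexes III and IV into supercomplexes, was at 617, 552 and 808 scaled reads untreated and 662, 760 and 790 with AZD8055, higher in Hep3B and Huh7 and not in MHCC97H. Of the tissue-specific paralogues listed, COX6A1, COX6B1, COX7A2, COX7B and COX8A were in the table, and the muscle or testis forms (COX6A2, COX6B2, COX7A1, COX7B2, COX8C) were not analysed here.

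With compound #57 alone the median difference was -0.09 in Hep3B, 0.04 in Huh7 and 0.01 in MHCC97H, and 39 of 76 estimates were below 0. The share of reads taken by members changed by -10.5%, -0.79% and -0.069% in these lines. The shares of the complexes did not move alike: that of complex V changed by -18.5%, -11.3% and -2.10%, and that of complex IV by 4.45%, 24.2% and 5.79%. Abundant genes weigh most in such shares. In complex V, ATP5B went from 8607, 11057 and 10133 to 6589, 8856.5 and 9214 scaled reads. ATP5A1 went from 3530, 5837 and 2940 to 2548.5, 4717 and 2859. Other members of complex V were higher, such as ATP5I in Huh7 (418 to 644). limma called 0 members in either direction, with 0.00866% of all genes called higher and 0% lower; at an unadjusted p under 0.05 it had 2 members higher and 3 lower, beside 13.6% and 8.1% of all genes. limma-voom on whole reads called 0 members and 0.779% of all genes. COX5A, a nuclear subunit of complex IV, was at 1102, 1083 and 1139 scaled reads untreated and at 1688, 1884 and 1291 with compound #57. It was higher in all 3 lines (0.53, SE 0.14, adjusted p = 0.108) and was called without MHCC97H (0.71, adjusted p = 0.0303). The fit without MHCC97H called 778 of all 11548 genes, where the fit with all 3 lines called 1. COX6A1 (0.18) and UQCR10 (0.24) were among the 11 members higher in all 3 lines. The 14 members lower in all 3 lines included UQCRC2 (-0.36), ATP5B (-0.28), ATP5A1 (-0.27), CYC1 (-0.26) and ATP5SL (-0.22). None of these was called.

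The combination of both drugs was compared with untreated cells to ask how the set stood when mTOR and SHP2 were inhibited together. The median difference was -0.26 in Hep3B, -0.28 in Huh7 and -0.25 in MHCC97H, and -0.26 for the mean over lines, where that of all genes was 0.09. limma called 26 members lower and 1 higher, where it called 15.1% of all genes lower and 20.9% higher. The members called lower numbered 8 in complex I, 1 in complex II, 5 in complex III, 3 in complex IV and 9 in complex V. At least 20% lower were 30 members in Hep3B, 29 in Huh7 and 31 in MHCC97H, beside 27.3%, 28.9% and 24.5% of all genes. The count of calls rests on all 3 lines and on the libraries that share the estimate of the spread. It was 8 without Hep3B, 0 without Huh7, 13 without MHCC97H and 5 with only the 6 libraries compared. Of all 11548 genes the same fits called 1797, 11, 3778 and 1889.

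NDUFAB1 fell to 271, 194 and 483 scaled reads with the combination (-1.01, SE 0.15, limma adjusted p = 0.00296). ATP5G1 fell to 232, 191 and 125 (-1.29, SE 0.20, adjusted p = 0.00301), which is 59.1% below untreated on the fitted scale. ATP5G3 fell to 1025, 1263 and 708 (-0.70, adjusted p = 0.00291). In all 3 genes each combination library was below its untreated one. With compound #57 alone NDUFAB1 was at 442, 296 and 746 scaled reads, ATP5G1 at 363, 426 and 240 and ATP5G3 at 1504, 1969 and 1184. NDUFS6 was at 399, 247 and 267. In Hep3B NDUFAB1, ATP5G1 and NDUFS6 were thus at or below their values with AZD8055 alone (466, 392 and 405). NDUFS6 fell by 0.85, ATP5J2 (ATP5MF, a membrane subunit) by 0.70, CYC1 by 0.61, COX7B by 0.61, NDUFB9 by 0.54, ATP5B by 0.54 and SDHB by 0.51 on the log2 scale, with adjusted p between 0.00402 and 0.0149. COX7A2L rose to 747, 971 and 946 (0.44, SE 0.13, adjusted p = 0.0251). This call was lost with the libraries centred on their medians (0.37, limma adjusted p = 0.0536) and without Hep3B or Huh7. It was also lost with only the libraries compared and with no cell line term, where no member was called higher. ATP5G2 was at 1768, 2358 and 2173, higher in all 3 lines and not called (0.30, adjusted p = 0.0963).

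Adding compound #57 to AZD8055 gave no call: 0 members and 0% of all genes passed in either direction, by limma or by limma-voom on whole reads, with 2 members higher and 1 lower at an unadjusted p under 0.05, beside 9.3% and 5.19% of all genes. The median of members was -0.05, 0.02 and 0.01 in the 3 lines. NDUFAB1 went from 466 to 271 scaled reads in Hep3B, from 215 to 194 in Huh7 and from 569 to 483 in MHCC97H (-0.39, SE 0.15, adjusted p = 0.293). COX5A was higher in all 3 lines (0.41, adjusted p = 0.266), as it was with compound #57 alone. Smaller differences of 1 sign in all 3 lines were those of NDUFS5 (-0.26), NDUFV3 (-0.19), UQCRFS1 (0.21) and ATP5SL (0.20), none called. The interaction of both drugs gave 0 calls among members and 0% among all genes in either direction. At an unadjusted p under 0.05 there was 1 member higher and 0 lower, beside 0.979% and 0.563% of all genes, and limma-voom also called 0 members and 0% of all genes.

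AZD8055 was also added on top of compound #57, and this comparison shares no library with AZD8055 against untreated. The median of members was -0.16 in Hep3B, -0.38 in Huh7 and -0.27 in MHCC97H. limma called 7 members lower and 0 higher, with 1.57% of all genes called lower and 2.62% higher. These were ATP5G3, UQCR10, NDUFB2, ATP5G1, NDUFAB1, ATP5J2 and NDUFS6, with differences between -0.91 and -0.51 and adjusted p between 0.0219 and 0.0497. Without Hep3B or without Huh7 0 were called, beside 1 and 0 of all genes, and 1 without MHCC97H, beside 331 of all genes. UQCR10, a small complex III subunit, went from 498, 472 and 358 to 302, 253 and 283 scaled reads.

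Set beside each other, both AZD8055 comparisons had 62 of 76 members lower in both (81.6%, against 37.8% of all genes) and 5 higher in both. Across the 76 members the differences correlated with r = 0.72 (Spearman 0.63). The points share the 3 cell lines and the genes' depth but no library, and members are not independent of each other. Over all genes r was 0.81. Of the 6 pairs of libraries that differ by AZD8055, 44 members were lower in all 6 (57.9%, against 15.0% of all genes). ATP5G2 was the member lower in none, and ATP5S and COX7A2L were lower in 1 pair each.

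**Figure D3:**
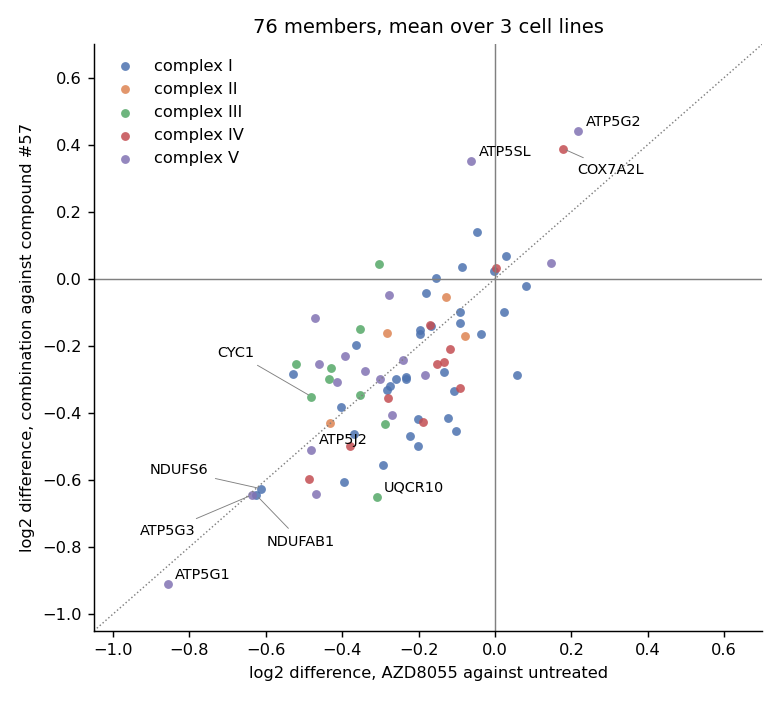
Log2 difference of each of the 76 members for AZD8055 against untreated (horizontal axis) and for the combination against compound #57 (vertical axis), each the mean over 3 cell lines, coloured by complex, with a dotted line of equal values. Of the points, 62 lie below 0 on both axes, with ATP5G1 farthest out, and 5 lie above 0 on both, ATP5G2 farthest.

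The 13 subunits encoded in mitochondrial DNA had no direction common to the 3 lines. They took 3.58%, 2.21% and 3.58% of the reads in untreated Hep3B, Huh7 and MHCC97H and 3.31%, 1.43% and 5.11% with AZD8055. Their median difference was thus -0.27 and -0.71 in Hep3B and Huh7 and 0.37 in MHCC97H. With the combination they took 1.52% in Hep3B, the lowest of that line, 2.25% in Huh7 and 4.40% in MHCC97H. With the combination limma called 1 of 13, MT-ND6, where 15.1% of all genes were called lower and 20.9% higher. MT-ND6, the only one encoded on the light strand, was at 1704, 579 and 927 scaled reads untreated. It fell to 247, 206 and 437 with the combination (-1.78, SE 0.29, limma adjusted p = 0.00347). Its values were 1032, 321 and 704 with AZD8055 alone and 900, 547 and 718 with compound #57 alone. The other 12 differed in sign between lines or did not pass.

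**Figure D4:**
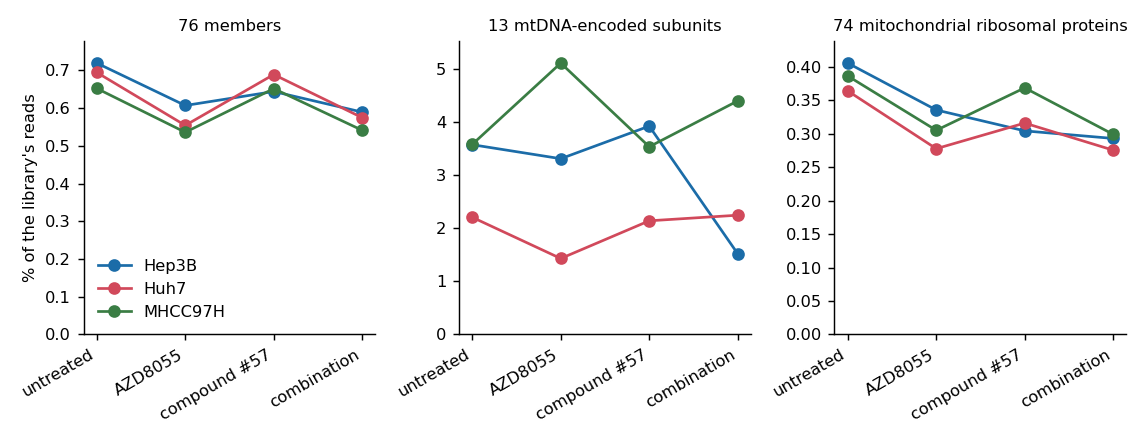
Share of each library's reads (%, axes from 0) taken by the 76 members, by the 13 mtDNA-encoded subunits and by the 74 mitochondrial ribosomal protein genes, by treatment, with a line joining the libraries of each cell line. The share of members is lower with AZD8055 and with the combination in every line, and the mtDNA-encoded share goes down in Hep3B and Huh7 and up in MHCC97H with AZD8055.

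Other genes of the pathway were followed from lists. Cytochrome c (CYCS), the carrier between complexes III and IV, was at 3623, 2549 and 2866 scaled reads untreated, 2379, 1599 and 1063 with AZD8055 and 1950, 1153 and 872 with the combination. It fell with the combination (-1.25, SE 0.21, adjusted p = 0.00384) and narrowly missed with AZD8055 (-0.90, adjusted p = 0.0518). COX4I1, the complex IV subunit left out by the name rule, gave -0.08 with AZD8055 and 0.16 with the combination, neither called. Of 53 assembly factors, 2 were called lower with AZD8055, where 0.753% of all genes were: NDUFAF5, which hydroxylates the complex I subunit NDUFS7 (-0.69), and COX11, a copper chaperone of complex IV (-0.66). With the combination 14 of the 53 were lower and 1, SURF1, higher, where 15.1% of all genes were called lower and 20.9% higher. Those lower included NDUFAF2 (-1.04), NDUFAF4 (-0.98), UQCC3 (-0.89), COA7 (-0.83) and the copper chaperone SCO1 (-0.69). All of these named genes were also below untreated in Hep3B and Huh7 with compound #57 alone. COA7 in Hep3B, for example, was at 761 scaled reads untreated, 665 with AZD8055, 384 with compound #57 and 434 with the combination.

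Among 18 pyruvate dehydrogenase and citric acid cycle genes, 17 had estimates below 0 with AZD8055 and 1 was called, FH, which makes malate from fumarate (-0.55, adjusted p = 0.0397). With the combination 4 of 18 were called lower (15.1% of all genes), FH, PDHX, IDH3A and MDH2, with differences between -0.81 and -0.60. Of 16 regulators of mitochondrial gene expression in the table, 0 were called with AZD8055 and 7 were called lower with the combination, again beside 15.1% of all genes. PPARGC1B, a coactivator related to PGC-1α, was at 100, 98.3 and 134 scaled reads untreated, 32.7, 20.8 and 79.3 with AZD8055 and 5.67, 11.2 and 45.3 with the combination (-2.83, SE 0.42, adjusted p = 0.00296). With compound #57 alone PPARGC1B was at 25.0, 38.3 and 133 scaled reads. TFAM, which packages mitochondrial DNA, fell by 0.83 on the log2 scale with the combination (limma adjusted p = 0.0168). TFAM was at 1388, 1729 and 729 scaled reads untreated and at 1096, 1152 and 583 with AZD8055. It was at 660, 1073 and 817 with compound #57 alone and at 702, 796 and 556 with the combination. YY1 gave -0.13 in both comparisons, NRF1 -0.20 with AZD8055 and -0.24 with the combination, GABPA -0.01 and 0.02, and ESRRA 0.00 in both, none called. PPARGC1A was not analysed here.

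The 74 mitochondrial ribosomal protein genes had a median of -0.34 with AZD8055 and -0.42 with the combination, and 36 of them were called lower with the combination, where 15.1% of all genes were. The 75 cytosolic ribosomal protein genes had medians of 0.18 and 0.19, of the other sign than the members.

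The largest differences in the set were between the cell lines, whose 4 libraries each are treatments of 1 line and so measure the spread over treatments. MHCC97H differed from the mean of Hep3B and Huh7 in 52 members, 24 higher and 28 lower. Of all genes 32.7% were called higher and 38.3% lower, and the members' counts lay near these shares. NDUFS8, an iron-sulfur subunit of complex I, was at 1138 to 1344 scaled reads in Hep3B, 999 to 1383 in Huh7 and 227 to 415 in MHCC97H, with no overlap (-1.83, SE 0.11, limma adjusted p = 1.9e-07). NDUFV1 (-1.40) and NDUFA6 (-1.28), an accessory subunit, were lower too. NDUFA1, an X-linked membrane arm subunit, was at 732 to 911 in MHCC97H and 242 to 372 in the other lines (1.42, SE 0.11), and COX6C and COX7B were 1.20 and 1.17 higher.

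Hep3B differed from Huh7 in 39 members, 28 higher and 11 lower, with 30.7% and 24.5% of all genes called. With libraries centred on their medians the split was 22 higher and 16 lower. ATP5D (ATP5F1D), the δ subunit of the central stalk, was at 707 to 927 scaled reads in Hep3B and 235 to 325 in Huh7 (1.58, SE 0.10, limma adjusted p = 1.4e-06). NDUFS6 was 1.09 higher. NDUFA5 was 0.81 lower, and ATP5A1 and NDUFV1 were each 0.71 lower.

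**Figure D5:**
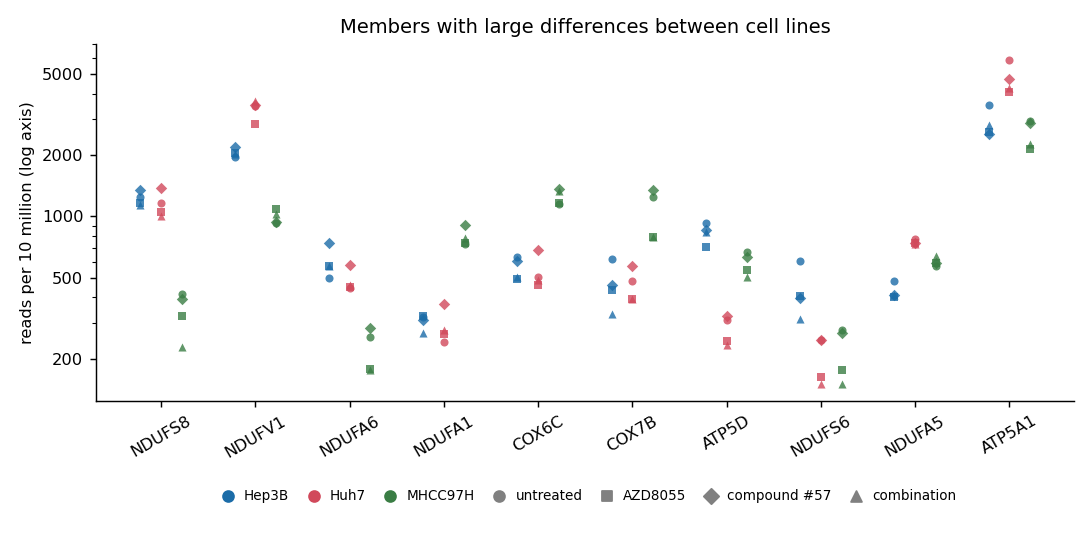
Scaled reads, per 10000000 reads of the library (log axis), in each of the 12 libraries of members with large differences between cell lines, coloured by line, with a marker shape for each treatment. The 4 libraries of MHCC97H lie below all others for NDUFS8, NDUFV1 and NDUFA6 and above them for NDUFA1, and the Hep3B libraries lie above those of Huh7 for ATP5D.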

How the data were processed

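RNA of 12 libraries (3 cell lines, 4 treatments) was sequenced by the authors from a stranded polyA+ preparation, with hg38 named in the submitters' processing notes. The aligner, counter and normalisation were not given in the sources used here. The deposited values are log2 values: 1 was added to the reads per 10000000, the log2 was taken, and 0.001 was added to every value, which was checked by turning every value back into reads, of which 100% came out whole within 0.05 reads. All 12 columns matched 1 sample each. Genes in the table numbered 11548.

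Treatments were compared with limma 3.58.1 (R 4.3.3) on the log2 values, with terms for treatment and cell line and a mean-variance trend, over all genes, with Benjamini-Hochberg adjustment and a threshold of 0.05. The unit is log2, so limma-voom on the recovered reads was an alternative. Within a line there is 1 library per treatment and no test. Differences there have 95% Clopper-Pearson intervals of the read ratio, and members at least 20% lower or 25% higher were counted. Intervals cover counting error only. Depth was 10667343 to 15968317 reads.

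Gene positions, lengths and pseudogene names came from GENCODE v44 and promoters from RefSeq (GRCh38.p14). Scripts used Python 3.11.15, scipy 1.17.1 and pandas 2.3.3, and the tests were tested on simulated data. The members, the gene lists and the motifs were chosen with earlier results of these data known.

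Named genes were catalytic and cofactor subunits, paralogous subunits, up to 10 called members with the lowest adjusted p per comparison, per comparison and direction the 3 members that moved 1 way in every line with the largest minimum difference, 3 per direction in each cell line comparison, and listed pathway genes that were called. Others were named after their values were seen. The text gives part of the called pathway genes as examples, and a member that the rule also names is not reported here.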

Additional observations from a re-analysis of the deposited data

Results flagged for a closer look

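Lines that went in opposite directions under the same contrast are given here. With 1 library per line and treatment, none of these differences between lines was tested.

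The median of the 13 mtDNA-encoded subunits with AZD8055 against untreated was -0.27 in Hep3B, -0.71 in Huh7 and 0.37 in MHCC97H. MHCC97H was also the line exposed for 24 h in place of 48 h.

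A few members were at least 20% lower in one line and at least 25% higher in another. With compound #57 against untreated, the complex I accessory subunit NDUFB8 gave log2 differences of -0.032 in Hep3B, -0.35 in Huh7 and 0.35 in MHCC97H, and NDUFC1 gave -0.45, 0.34 and 0.21 in the same order. NDUFA13, the member with the fewest reads, gave -0.14, 0.32 and -0.62 with the combination against untreated and -0.29, 0.34 and -0.37 with the combination against AZD8055, comparisons that share the combination libraries. With the combination against compound #57, NDUFA2 gave -0.21, -0.68 and 0.49.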

How the results depend on the processing

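The members named for a call or for the size of their difference kept its direction under every alternative run for them. Counts of called members moved more. With AZD8055 against untreated, where 1 member was called, it was 3 with the 75% of genes with the highest mean, 8 with libraries centred on their medians, 3 with limma-voom, 11 after adjustment for transcript GC content and length (chosen after seeing the data), and 0 with no cell line term, with only the libraries compared and without any 1 line (0 to 0). Of all genes these fits called 347 of 8661, 473, 434, 661 of 11198, 0, 2 and 0 to 109, in the same order. For the combination against untreated (27 members called) the count of members was 28 with the 75% of genes, 38 with centred libraries, 30 after the GC and length adjustment, 0 with no cell line term, 5 with only the libraries compared and 0 to 13 with 1 line left out. Of all genes these fits called 3315 of 8661, 4222 of 11548, 4268 of 11198, 0, 1889 and 11 to 3778. For the combination against compound #57 (7 members called) the count of members was 8, 8, 10, 0, 1 and 0 to 1. Of all genes the same fits called 488 of 8661, 509, 732 of 11198, 0, 265 and 0 to 331. Members called with compound #57 against untreated ranged from 0 to 1 and for Hep3B against Huh7 (39 called) from 25 to 30 with 1 line or treatment left out. All genes called ranged there from 0 to 778 and from 5192 to 5789. Fewer libraries leave fewer residual degrees of freedom, and without a cell line term the differences between lines enter the spread.

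The median of members with AZD8055 (-0.24) was -0.27 with centred libraries and -0.21 after the GC and length adjustment. For the combination against untreated (-0.26) it was -0.29 with the 75% of genes with the highest mean, -0.33 with centred libraries, -0.29 without ATP5S and ATP5SL, a change made after seeing the data, and -0.27 to -0.24 with 1 line left out. For the combination against AZD8055 (-0.02) it was -0.057 with centred libraries. At 1.5-fold in place of a 20% decrease, members lower with AZD8055 numbered 1, 6 and 7 in Hep3B, Huh7 and MHCC97H (4.32%, 10.1% and 10.5% of all genes), and with the combination 9, 12 and 11 (15.7%, 16.7% and 13.7%). At that size the members' counts lie near or below the share of all genes.

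The cell line term pairs the libraries of a line, and the unpaired fit is the one with no cell line term. With 1 library per line and treatment, spread between cultures is unknown. Transcripts of members are shorter (median 905 bases) than those of all genes (3411).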
